A study of Manis javanica with 3 samples.

Results

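The genes described here are the nuclear genes whose products form the oxidative phosphorylation system of the mitochondrion, together with a few genes that carry the same name prefixes. A gene was taken when it did not lie on the mitochondrial genome and when the symbol of its Swiss-Prot match began with NDUF, UQCR, ATP5, COX4, COX5, COX6, COX7 or COX8, or was SDHA, SDHB, SDHC, SDHD or CYC1. The rule found 101 of the 24220 genes in the expression tables, under 89 symbols. Of these genes, 39 belonged to complex I, 6 to complex II, 10 to complex III, 19 to complex IV and 15 to complex V, and 12 were assembly factors or other genes of the same name. No expression value was used to choose them.

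Oxidative phosphorylation takes place in the inner mitochondrial membrane. Complexes I and II pass electrons from NADH and succinate to ubiquinone, complex III passes them on to cytochrome c, complex IV reduces oxygen, and complex V (ATP synthase) uses the proton gradient to make ATP. Most subunits are encoded in the nucleus, a small catalytic core is encoded in the mitochondrial genome, and complex II is wholly nuclear. The subunits are made in nearly every tissue and are among the steadier transcripts of the cell, although a few have isoforms that depend on tissue or oxygen.

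A single adult female Malayan pangolin (*Manis javanica*) gave RNA labelled as small intestine, salivary glands and liver. It was a wild animal that died during rescue and was dissected soon after its natural death. The study names no treatment of the animal. Each tissue gave 1 poly(A) library, so no difference below has a replicate check, no test was made, and each interval covers counting error only. Tissue, library and cell composition cannot be told apart in bulk RNA from 1 animal, and fewer cells of a type cannot be told apart from less RNA per cell. The counts summed to 10158924 for small intestine, 8318686 for salivary glands and 14568778 for liver, and values are given in that order throughout.

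Defining markers were checked in each library. The library labelled small intestine held 38724 reads of ATP4A and 5060 of ATP4B, the proton pump of gastric parietal cells. It also held 1005640 reads of pepsin A, whereas GIF and LIPF (gene6272), of the same gastric lists, had only 9 and 5. FABP2 and both LCT genes, which mark enterocytes, had 0 reads in that library. The gene that matched sucrase-isomaltase in NR, a protein database (gene7608), had 2 reads and ALPI had 4. Other genes of the enterocyte list were read there, with 618, 743 and 964 reads for VIL1 (gene24763) and 63, 10 and 24 for SLC5A1 (gene6542). Summed over 8 genes, smooth muscle markers reached 11665, 1129 and 327 CPM. CPM is a count as a share of its library, with library sizes set by TMM, a method that relies on the bulk of genes. Of these sums, gene19096, given the symbol MYH11 but matching unconventional myosin-XVIIIa in NR, held 157, 133 and 214 CPM. The 16 genes of the enterocyte list summed to 134, 163 and 615 CPM, highest in the liver. Of the liver sum, 473 CPM came from gene10946, given the symbol SI but matching a maltase-glucoamylase-like protein in NR. Some others of the list also matched related genes there, such as advillin for VIL1 (gene221). An FPKM above 1 was reached by 4, 3 and 6 of the 16 genes. By the formula of the study, FPKM is the fragment count divided by the length of the transcript and the depth of the library. The deposited values did not follow it for every gene, as given with the processing. The summed hepatocyte markers were 219, 247 and 23238 CPM, of which FGB held 0, 0 and 20863. ALB had 1540, 4 and 10991 reads and TTR (gene9783) had 2, 0 and 58. All genes of this list were highest in the liver except gene10056, with 13.3, 35.7 and 23.6 CPM. That gene was given the symbol TTR but matched a 5-hydroxyisourate hydrolase-like protein in NR. The 6 genes of the salivary list summed to 5.203, 149.5 and 32.1 CPM, with 22, 1051 and 419 reads for AQP5, whereas KLK1 had 12, 20 and 46 and LPO (gene8992) had 6, 6 and 2. The 18 genes of the skeletal muscle list summed to 112, 256 and 25.5 CPM. Of these sums, gene7262, given the symbol MYH7 but matching unconventional myosin-Vc in NR, held 30.4, 191 and 10.7 CPM. ACTA1 (gene18927) had 7, 259 and 0 reads and CKM had 395, 47 and 1. The part of these cell types in the values below was not tested, and the first library is called by its label only.

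Most members were transcribed in all 3 libraries. By the threshold of FPKM 1, 91, 90 and 91 of the 101 members passed, 88 of them in every library. Over the whole set of 24220 genes, 14392, 13631 and 13810 passed, 11359 of them in every library. An FPKM above 100 was reached by 27, 21 and 30 members, whereas 429, 452 and 675 of all genes reached it. The members took 0.434% of the counts in the library labelled small intestine (95% Wilson interval 0.430 to 0.438%), 0.537% in the salivary gland library (0.532 to 0.542%) and 0.513% in the liver library (0.509 to 0.517%). Their share of the FPKM was 1.11, 1.19 and 1.16%. Without the 10 genes with most counts in each library, the first library had the highest share of counts instead of the lowest, as given in the last section. Scaled by TMM, the members summed to 5099, 4591 and 5105 CPM, close to each other in the first library and the liver and lower in the salivary glands.

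Taking the gene with most reads for each subunit symbol, and leaving out those below 10 reads, the median FPKM of 77 subunits was 74.9, 72.8 and 78.5. The complexes were not equally abundant by the deposited FPKM. Complex IV had the highest median FPKM, with 169, 116 and 153, and complex V followed with 133, 101 and 110. Complex III had medians of 87.7, 75.01 and 92.9, and complex II had 69.8, 46.8 and 76.3. Complex I, the largest of the complexes, had medians of 49.7, 51.5 and 47.8. The order of the 5 complexes by median FPKM was the same in all 3 libraries except that complex I lay above complex II in the salivary glands. The assembly factors and others were far lower, with medians of 12.6, 8.07 and 13.7.

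**Figure D1:**
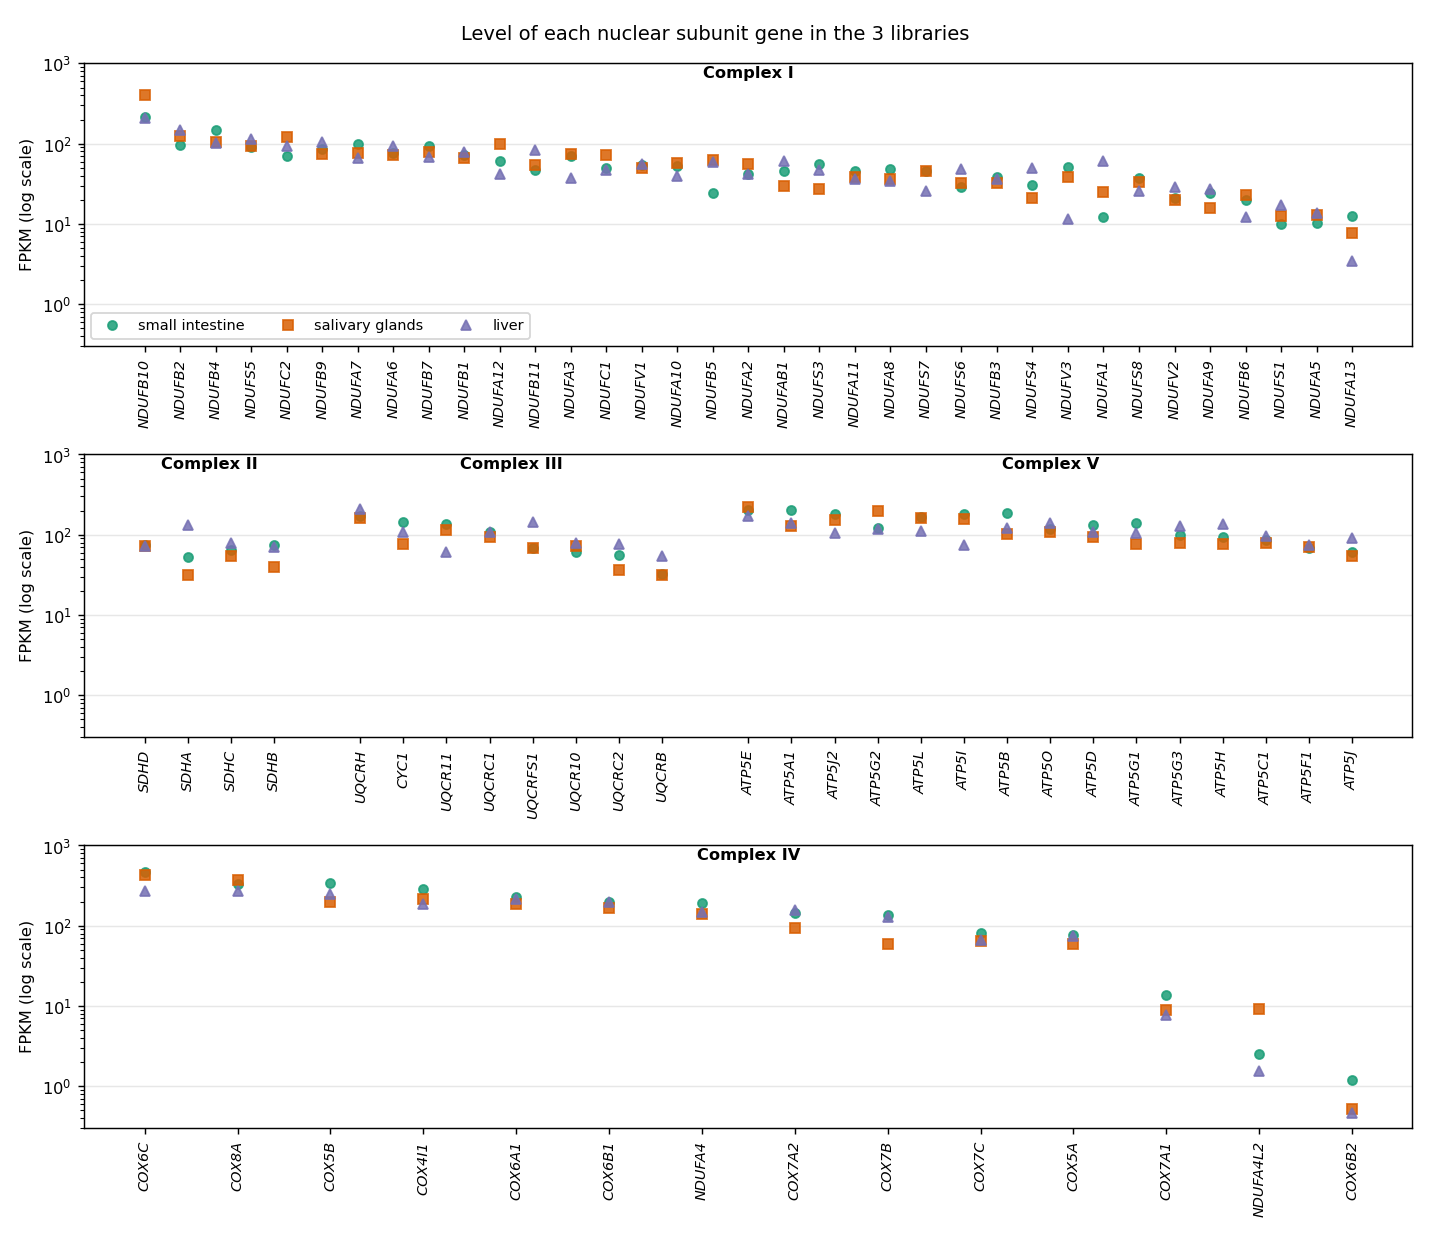
Deposited FPKM (log scale) of nuclear subunit genes in the library labelled small intestine (circles), the salivary gland library (squares) and the liver library (triangles), ordered within each complex by mean FPKM, with 1 library per tissue and no error bar. The 3 symbols of most genes lie close together, COX6C is at the top of complex IV with 466, 429 and 274, and SDHA in complex II, NDUFA1 and NDUFV3 in complex I and NDUFA4L2 in complex IV are spread apart.

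Members varied less between libraries than genes in general. The highest of the 3 scaled values was under 2 times the lowest in 74 of the 94 members with at least 10 reads in 1 library (78.7%), against 35.0% of 18037 genes passing the same filter. With at least 100 reads in 1 library it was under 2 times in 70 of 85 members (82.4%), against 42.8% of 11828 genes. The median of this ratio was 1.57 for members and 2.76 for all genes. Across the 77 subunits, the order of FPKM had a Spearman rho of 0.866 between the liver and the library labelled small intestine, 0.926 between the salivary glands and the library labelled small intestine, and 0.817 between liver and salivary glands. Over 18037 genes the same values were 0.680, 0.816 and 0.714. These correlations run across genes that share libraries and are given as a description. The 7 members outside the filter were 6 genes with 0 reads in every library and COX6A2.

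For comparisons between libraries, a member was counted as past 2-fold when its TMM-scaled CPM differed at least 2 times and it had at least 10 reads in 1 of the 2 libraries. Between the liver and the library labelled small intestine, 11 of 94 members were past 2-fold in either direction, against 48.3% of all genes tested. Of these, 5 were past 2-fold higher in the liver, where 24% of all genes tested were, and 6 were past 2-fold higher in the library labelled small intestine, where 24.2% were. Between the salivary glands and the library labelled small intestine it was 8 of 94 members, against 37.6% of all genes tested, with 5 past 2-fold higher in the salivary glands, against 16.9%, and 3 past 2-fold lower, against 20.6%. Between the liver and the salivary glands it was 15 of 93 members, against 47.9%, with 7 past 2-fold higher in the liver, against 24.9%, and 8 past 2-fold lower, against 22.9%. With at least 50 reads in 1 of the 2 libraries, 8 of 86, 5 of 86 and 13 of 87 members were past 2-fold in either direction, against 43.5, 31.5 and 42.7% of all genes. The median log2 ratio of members was -0.02, -0.08 and 0.12 in these 3 comparisons, and that of all genes 0.08, 0.02 and 0.07. These comparisons share libraries, so they are not independent of each other. With scaling by library size only, all ratios moved by 0.24, 0.46 and -0.22 on the log2 scale, and the 3 medians of members changed sign. The split of the counts past 2-fold between higher and lower also depended on the scaling, as given in the last section.

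**Figure D2:**
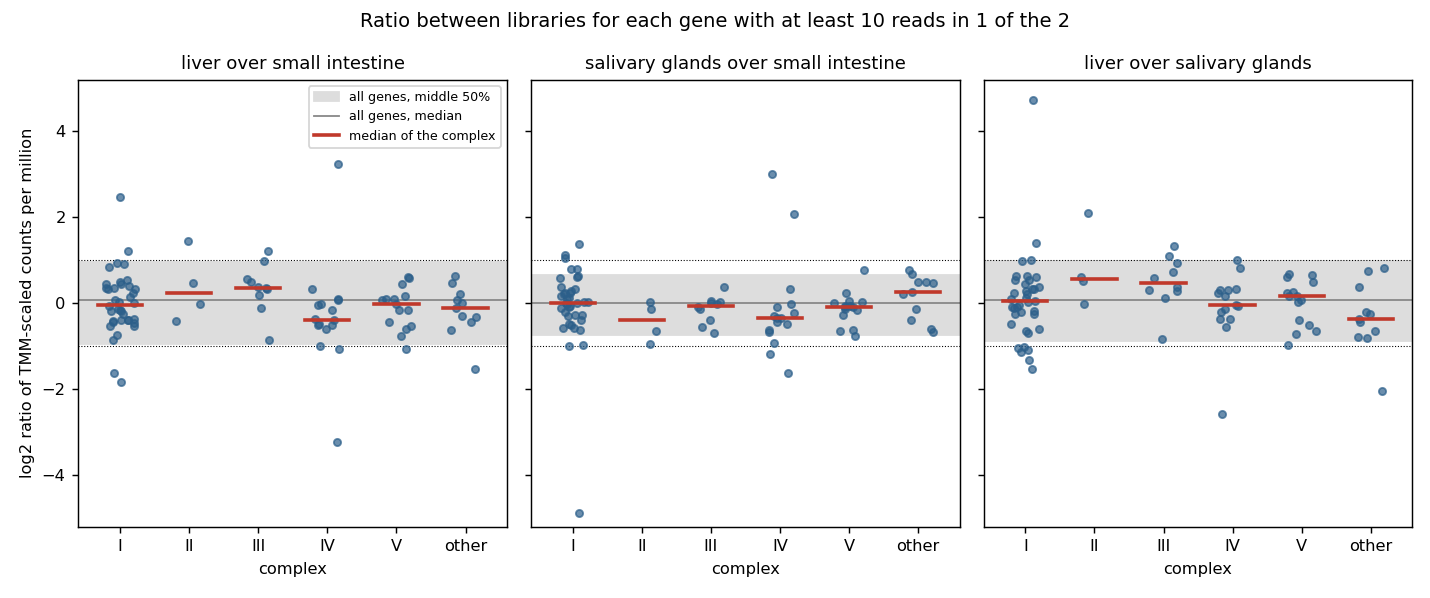
Log2 ratio of TMM-scaled CPM between 2 libraries for each member with at least 10 reads in 1 of them (points, spread sideways for view), by complex, for the 3 pairs of libraries. Red bars are medians of a complex, the grey band holds the middle 50% of all genes and dotted lines mark a 2-fold difference. Most points lie inside the dotted lines, and complex III lies mostly above 0 in both liver panels.

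In complex II, the succinate dehydrogenase, 1 gene stood apart. SDHA, the flavoprotein that oxidises succinate (gene10778, scaffold NW_016534523.1, 49775 to 83233, plus strand), had 1160, 830 and 5323 reads and an FPKM of 53.0, 31.7 and 134. It was the lowest of the 4 detected subunits by FPKM in the library labelled small intestine and the salivary glands, and the highest in the liver. The liver value was 2.71 times that of the library labelled small intestine (95% counting interval 2.54 to 2.89) and 4.26 times that of the salivary glands (3.96 to 4.59), both past 2-fold under every scaling tried.

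The partners of SDHA did not differ to that extent. SDHB, the iron-sulfur subunit, had an FPKM of 74.9, 39.3 and 69.5, and its log2 ratio of liver over the library labelled small intestine was -0.42. SDHC, a membrane anchor, had an FPKM of 64.7, 54.2 and 80.0 and a log2 ratio of 0.47. SDHD, the other anchor, was nearly level, with an FPKM of 75.5, 72.7 and 72.7 and a log2 ratio of -0.01. In the salivary glands SDHB was lower than in the library labelled small intestine, by a log2 ratio of -0.95, which stayed inside 2-fold.

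Complex I takes electrons from NADH. Its core subunits hold the flavin and the iron-sulfur clusters. NDUFV1, the flavin-binding subunit, had an FPKM of 54.4, 49.2 and 56.0, and NDUFS8 had 37.2, 33.8 and 26.1. NDUFS3, beside them in the hydrophilic arm, had 55.5, 27.7 and 47.0, with a log2 ratio of -0.998 for salivary glands over the library labelled small intestine that lay just short of 2-fold and was past it with DESeq2 size factors and with the fold of FPKM (log2 ratios of -1.01 in both). NDUFS1, the largest subunit, had a low FPKM of 9.95, 12.6 and 17.1 on a gene model of 6097 bases, with 451, 636 and 1049 reads. NDUFA5, with a model of 6071 bases, had 10.4, 12.9 and 13.6, whereas SDHB of complex II, with a model of 5930 bases, had 74.9, 39.3 and 69.5. The part of model length in these values was not tested.

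Among the accessory subunits of complex I, NDUFB10 had the highest FPKM of the complex in each library, 213, 403 and 208. It was past 2-fold higher in the salivary glands than in both other libraries, but inside 2-fold by the fold of FPKM, with log2 ratios of 0.92 for salivary glands over the library labelled small intestine and -0.95 for liver over salivary glands. NDUFB2 had the next highest value in any library, with 96.2, 125 and 149, although NDUFB4 (146) and NDUFA7 (100.1) lay above it in the library labelled small intestine. NDUFA1, a small membrane-arm subunit (gene20220), had 40, 94 and 376 reads and an FPKM of 12.2, 25.2 and 61.1. Its liver value was 5.55 times that of the library labelled small intestine (4.002 to 7.90) and 2.66 times that of the salivary glands (2.11 to 3.37), and the 3 libraries stood in the order of small intestine, salivary glands and liver with each step past 2-fold, although the counting interval of the first step, 2.09 times, ran from 1.43 to 3.11. NDUFB5 had 76, 222 and 297 reads, and was 2.31 times (1.79 to 3.01) and 2.598 times (1.99 to 3.42) the library labelled small intestine in the liver and the salivary glands, which differed little from each other.

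NDUFV3, an accessory subunit next to the flavin site (gene4688), ran the other way. It had 242, 224 and 116 reads and an FPKM of 50.8, 38.6 and 11.6. The library labelled small intestine was 3.53 times the liver and the salivary glands were 2.91 times the liver, with counting intervals wholly past 2-fold. NDUFA12 had 266, 519 and 312 reads and was past 2-fold higher in the salivary glands than in the liver, as were NDUFA3 and NDUFB6, with log2 ratios of liver over salivary glands of -1.32, -1.02 and -1.03. By the fold of FPKM NDUFA3 and NDUFB6 lay inside 2-fold, at -0.99 and -0.88. NDUFS4, by contrast, was at 2-fold in the other direction, with 110, 87 and 263 reads and a log2 ratio of 1.01, which became 0.79 with library size only and 0.93 with upper quartile scaling.

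Complex III passes electrons from ubiquinol to cytochrome c. UQCRH, the hinge subunit, had the highest FPKM of the complex, 169, 163 and 210. CYC1, which encodes cytochrome c1, had 145, 76.7 and 107, and its 1336, 936 and 2105 reads gave log2 ratios of -0.10 for liver and -0.68 for salivary glands over the library labelled small intestine. UQCRFS1, the Rieske iron-sulfur protein, had 68.3, 67.5 and 143, with a log2 ratio of 0.98 for liver over the library labelled small intestine and 0.93 over the salivary glands, both of which were past 2-fold by the fold of FPKM (1.06 and 1.08). UQCRC1, a core protein, had 107, 94.4 and 108. UQCR11, a small subunit, had the opposite sign, with 136, 115 and 60.1, and log2 ratios of -0.85 and -0.82 for liver over the other libraries. Of the 10 genes, 8 had a positive log2 ratio for liver over the library labelled small intestine (median 0.36), and 9 had one for liver over salivary glands (median 0.48), against 9121 of 17399 and 8953 of 17162 of all genes tested. As 3 of the 10 are copies of UQCRC2, 1 gene per symbol gave 6 of 8 and 7 of 8. The sign of both medians was the same with every scaling tried.

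Mitochondrial cytochrome c itself is made from CYCS, which the rule does not include. Its gene768 had 300, 250 and 2104 reads and an FPKM of 37.4, 27.6 and 179, so that the liver was 4.14 times the library labelled small intestine and 5.59 times the salivary glands. CYC1, its direct electron donor within complex III, did not differ in that way.

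**Figure D3:**
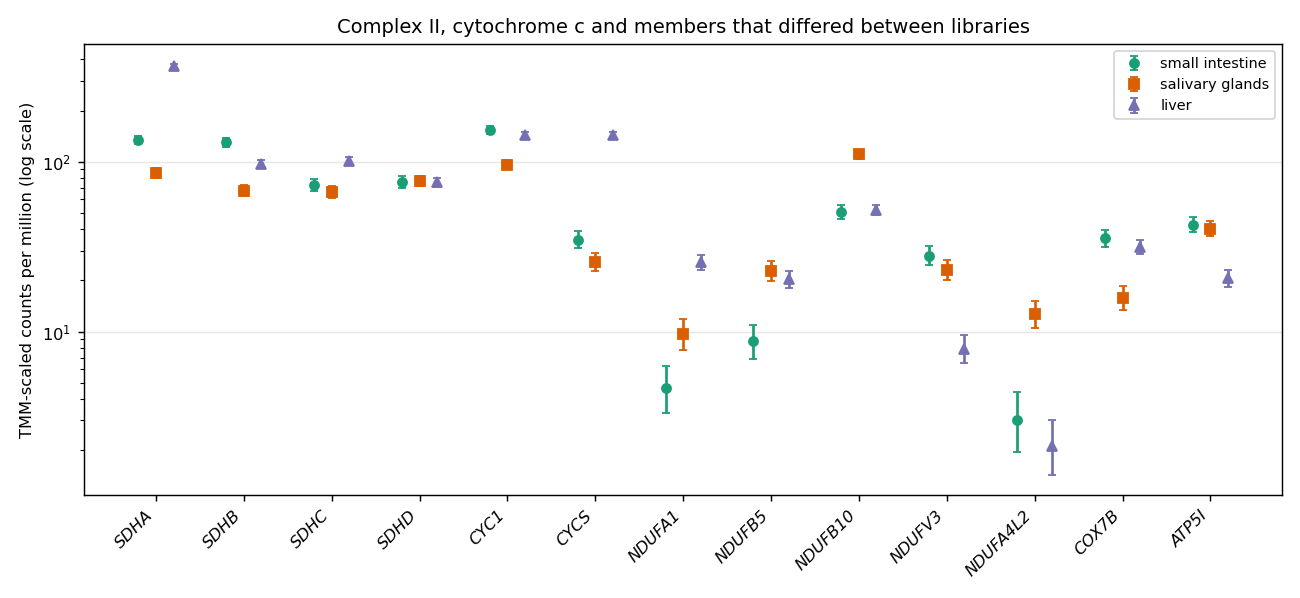
TMM-scaled CPM (log scale) of the SDH genes, CYC1, CYCS and 7 members that differed between libraries. Symbols are single libraries and bars are exact 95% Poisson intervals of the counts, which hold counting error only. SDHA and CYCS are highest in the liver while SDHB, SDHC, SDHD and CYC1 lie closer together, and NDUFA4L2 and NDUFB10 are highest in the salivary glands.

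Complex IV reduces oxygen to water. COX6C had the highest FPKM of all members in each library, 466, 429 and 274. COX8A had 336, 373 and 273, COX5B had 342, 198 and 246, and COX4I1 had 286, 215 and 184 on gene2141. The median log2 ratio of 16 genes was -0.38 for liver over the library labelled small intestine, and 12 were negative, against 8278 of 17399 of all genes tested. In that comparison 3 of the 16 were past 2-fold in either direction, against 48.3% of all genes, and COX7A1, at -0.9998, made it 4 with DESeq2 size factors and with upper quartile scaling. For salivary glands over the library labelled small intestine the median was -0.34, which became 0.11 with scaling by library size only. COX7B had 306, 153 and 461 reads and stood lower in the salivary glands, with a log2 ratio of -1.17 to the library labelled small intestine, which became -0.71 with library size only. For liver over salivary glands its log2 ratio was 1.001, at the threshold, and it was 0.78 with library size only and 0.93 with upper quartile scaling.

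The pairs of isoforms of complex IV were strongly uneven in all 3 libraries. For subunit 6A, COX6A1, the widespread form, had an FPKM of 229, 188 and 215, while COX6A2, the form of heart and skeletal muscle, had 1, 0 and 6 reads. For subunit 7A, COX7A2 had 144, 92.5 and 158, and COX7A1, the other muscle form, had 13.6, 8.98 and 7.84. COX7A2L, a related protein that takes part in supercomplexes, had 39.6, 62.1 and 59.5. For subunit 6B, COX6B1 had 196, 167 and 195, and COX6B2, the testis form, had 1.19, 0.520 and 0.463 on a model of 5035 bases. For subunit 4, gene24921 carried the symbol COX4I1 by Swiss-Prot but its NR match was isoform 2, the form linked to low oxygen. It had 11, 4 and 2 reads, against 1875, 1711 and 2235 for gene2141.

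NDUFA4, once assigned to complex I and now known as a subunit of complex IV, had an FPKM of 194, 140 and 149 on gene7665. Its paralog NDUFA4L2, a hypoxia-induced form, was far lower, with 26, 123 and 31 reads and 2.52, 9.31 and 1.57 FPKM. It was 4.21 times the library labelled small intestine in the salivary glands (2.74 to 6.70), and 5.97 times the liver. A further gene with the symbol NDUFA4, gene11818, matched normal mucosa of esophagus-specific gene 1 in NR. It had 12, 19 and 7 reads and was counted with the other genes.

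In complex V, the ATP synthase, 0 of 15 genes were past 2-fold between the salivary glands and either other library, and 1 was between the liver and the library labelled small intestine. Of all genes tested, 37.6% were past 2-fold between the salivary glands and the library labelled small intestine, 47.9% between the liver and the salivary glands and 48.3% between the liver and the library labelled small intestine. With library size only, upper quartile scaling or the fold of FPKM, ATP5I was past 2-fold lower in the liver than in the salivary glands, and with library size only ATP5G2 was past 2-fold higher in the salivary glands than in the library labelled small intestine. The catalytic head gave the most reads of the complex, 2980, 2190 and 3354 for ATP5A1 and 2716, 1810 and 3206 for ATP5B, the alpha and beta subunits. Their log2 ratios of liver over the library labelled small intestine were -0.59 and -0.52. ATP5E, the epsilon subunit, had the highest FPKM of the complex, 206, 220 and 172.

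The 3 genes that encode the same mature c subunit of the membrane ring differed in their order between libraries. ATP5G1 had an FPKM of 140, 77.1 and 105, ATP5G2 had 122, 197 and 119, and ATP5G3 had 98.9, 79.3 and 129. ATP5G1 was thus the highest of the set in the library labelled small intestine, ATP5G2 in the salivary glands and ATP5G3 in the liver. With TMM each change of a single gene stayed inside 2-fold, the widest being a log2 ratio of 0.77 for ATP5G2 in salivary glands over the library labelled small intestine.

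Of the small membrane subunits, ATP5I, subunit e, had 369, 393 and 301 reads and was past 2-fold lower in the liver than in the library labelled small intestine, with a log2 ratio of -1.05 (-1.28 to -0.83), which became -0.81 with library size only. In the same comparison ATP5J2, subunit f, had a log2 ratio of -0.77 and ATP5L, subunit g, one of -0.44. USMG5 and MP68 (gene19568), other small proteins of the same membrane part that lie outside the rule, had -0.71 and -0.72. Of the peripheral stalk, ATP5H had 0.58, ATP5J 0.60, ATP5F1 0.10 (-0.05 to 0.25, which holds 0) and ATP5O 0.18, all inside 2-fold. For liver over salivary glands the log2 ratios were -0.98 for ATP5I, -0.64 for ATP5J2, -0.50 for ATP5L, 0.65 for ATP5H, 0.69 for ATP5J, 0.08 for ATP5F1 and 0.17 for ATP5O. ATPIF1, which inhibits ATP hydrolysis by the synthase, had 381, 459 and 835 reads. Its log2 ratio was 0.37 for liver over the library labelled small intestine and 0.27 for liver over salivary glands.

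Assembly factors and others of the same name were few and low. NDUFAF3, an assembly factor of complex I, had an FPKM of 43.4, 83.0 and 34.8, the highest of the group in the first 2 libraries, and COX7A2L was above it in the liver. NDUFAF3 had a log2 ratio of 0.78 for salivary glands over the library labelled small intestine and -0.78 for liver over salivary glands, and lay past 2-fold in the first with library size only (1.24) and in the second by the fold of FPKM (-1.25). NDUFAF4, which acts with it, ran in the opposite direction, with 12.6, 7.36 and 13.9 and log2 ratios of -0.61 and 0.82. Apart from gene11818, none of the 11 tested genes of this group was past 2-fold in any of the 3 comparisons with TMM. Of all genes tested, 48.3% were between the liver and the library labelled small intestine. The shares were 37.6% between the salivary glands and that library and 47.9% between the liver and the salivary glands. In a separate list of assembly factors under other names, 21 of 39 symbols were found, as 22 genes. There 5 were past 2-fold higher in the liver than in the library labelled small intestine and 0 lower, against 24% and 24.2% of all genes, with a median log2 ratio of 0.47. For liver over salivary glands it was 3 higher and 3 lower, against 24.9% and 22.9%. The highest FPKM of that list in any library belonged to COX14, with 41.4, 26.9 and 78.1, and COA5, with 35.3, 68.0 and 22.8, both assembly factors of complex IV, while UQCC2, with 46.9, 38.7 and 56.3, was the highest in the library labelled small intestine.

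Some symbols were given to more than 1 gene, 10 symbols to 22 genes in all, and 7 members were new genes joined by the study from reads outside the annotation. The transcript of 1 of these is the only member sequence used here. Manis_javanica_newGene_241 matched UQCRC2, a core protein of complex III, in both databases (scaffold NW_016527582.1, 6454 to 26844). It had 35, 36 and 137 reads and was 2.31 times the library labelled small intestine in the liver (1.59 to 3.45). The transcript of 1679 bases held no run longer than 99 codons without a stop in any of the 6 frames. In the first frame of the strand as given, a run of 98 codons from base 157 to 450 ended in a TGA at bases 451 to 453, and 72 codons without a stop followed. Bases 361 to 510 are shown 5′ to 3′ to let this stop be seen, with the TGA in capitals.

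Manis_javanica_newGene_241: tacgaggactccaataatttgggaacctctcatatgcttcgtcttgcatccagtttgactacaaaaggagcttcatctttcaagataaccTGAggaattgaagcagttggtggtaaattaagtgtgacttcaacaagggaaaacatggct

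The other genes of UQCRC2 had more reads. The annotated gene22941 had 384, 330 and 827, and Manis_javanica_newGene_5659, on another scaffold and with a model of only 388 bases, had 60, 46 and 149. All 3 had positive log2 ratios for liver over the library labelled small intestine, 0.35, 0.55 and 1.21. The counting of the study could split reads between such copies, so each of these values is uncertain.

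The 2 transcribed genes of NDUFA13 were both new genes, since the annotated gene7116, with a model of 196 bases, had 0 reads. Manis_javanica_newGene_6071 had 142, 114 and 78 reads, and the library labelled small intestine was 3.08 times the liver. Manis_javanica_newGene_13779 had 26, 1 and 40 reads, a log2 ratio of 4.73 for liver over salivary glands whose counting interval ran from 2.17 to 10.1, and an NR match to a hypothetical protein only. Beside COX7C (gene20173, 286, 252 and 370 reads), Manis_javanica_newGene_5428 had 2, 18 and 32 reads. A second gene of NDUFS1, Manis_javanica_newGene_7990, had 26, 15 and 33.

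The 6 members with 0 reads in every library were COX6C (gene2184), COX7B2, NDUFA13 (gene7116), SDHA (gene26252), SDHD (gene7482) and NDUFAF2. For COX6C, SDHA and SDHD a second gene carried the reads. A count of 0 allows up to 0.347, 0.309 and 0.205 scaled CPM at these depths. NDUFAF2 was a new gene of 252 bases, and COX7B2 is a testis form of subunit 7B. UQCRQ of complex III is annotated but was not analysed here.

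Members lay mostly on scaffolds of their own. On the same scaffold were NDUFS8 and NDUFV1, 60.9 kb and 4 genes apart, ATP5D and NDUFS7, 103 kb and 5 genes apart, and NDUFAF3 and UQCRC1, 242 kb and 11 genes apart. NDUFS8 and NDUFV1 had log2 ratios of -0.25 and 0.25 for liver over the library labelled small intestine.

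The mitochondrial genome encodes the partners of these proteins. Its 10 genes in the tables, among which MT-ATP6, MT-CO3 and MT-ND4 are missing, took 2.05, 1.32 and 3.06% of the counts. Their sum was 4.73, 2.46 and 5.97 times that of the nuclear members within each library, a ratio that no scaling changes. In the salivary glands all 10 were below the library labelled small intestine, 6 of them past 2-fold, against 20.6% of all genes, with a median log2 ratio of -1.57. In the liver 9 of 10 were past 2-fold above the salivary glands, against 24.9% of all genes, with a median of 1.61. The complex IV core subunit gene MT-CO1 had 99780, 40782 and 157871 reads, and MT-ND1 of complex I had 2318, 512 and 6338. The highest FPKM in any library belonged to MT-ATP8, with 16590, 11848 and 28490, and MT-CO2, with 7171, 5157 and 17728, although MT-CO1, with 8668, lay above MT-CO2 in the library labelled small intestine. Between the liver and the library labelled small intestine the genes were divided, with 2 past 2-fold higher, MT-ND2 and MT-CO2, and 2 lower, MT-ND5 and MT-ND6, against 24% and 24.2% of all genes.

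**Figure D4:**
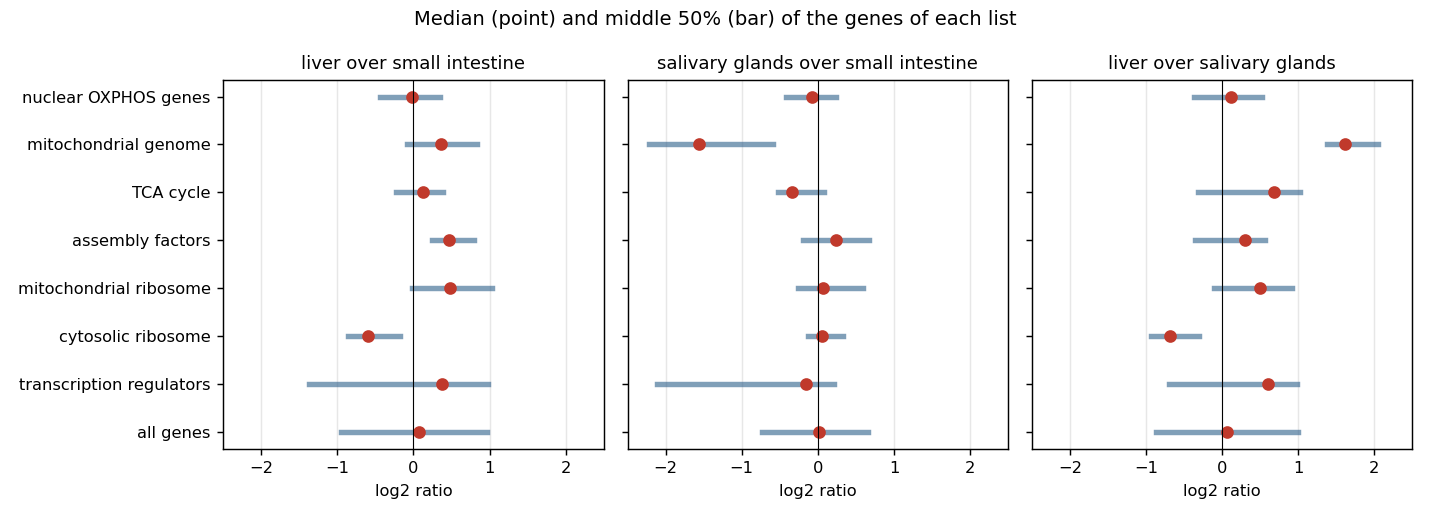
Median (point) and middle 50% (bar) of the log2 ratio of TMM-scaled CPM over the genes of each list, for the 3 pairs of libraries. OXPHOS stands for oxidative phosphorylation and TCA for tricarboxylic acid. The median of the nuclear genes is near 0 in each panel, and their bar is shorter than that of all genes. Some other lists have shorter bars and others longer. For liver over small intestine the bar spans 0.784 for the nuclear genes, 0.616 for the TCA cycle, 0.686 for the cytosolic ribosome and 1.05 for the mitochondrial ribosome. The mitochondrial genome has its median at -1.57 for salivary glands over small intestine and at 1.61 for liver over salivary glands.

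The tricarboxylic acid cycle feeds complexes I and II. Of its 17 tested genes, 1 was past 2-fold higher and 1 lower in the liver than in the library labelled small intestine, against 24% and 24.2% of all genes. The lower gene was CS, citrate synthase, often used as a measure of mitochondrial content, with 2374, 2819 and 1130 reads and a log2 ratio of -1.83. The higher gene was FH, fumarate hydratase, the enzyme that acts on the product of SDHA, with 256, 152 and 1006 reads and a log2 ratio of 1.22. MDH2, malate dehydrogenase, had the highest FPKM of the list in any library, with 112, 79.3 and 145. CS, with 101, 99.0 and 28.1, was above it in the salivary glands. Of the 17 genes, 5 were past 2-fold higher and 2 lower in the liver than in the salivary glands, against 24.9% and 22.9% of all genes. In the salivary glands 0 were past 2-fold higher and 2 lower than in the library labelled small intestine, against 16.9% and 20.6%.

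Proteins of the mitochondrial ribosome, which translates the mitochondrial transcripts, had a median log2 ratio of 0.47 for liver over the library labelled small intestine, with 20 of 75 past 2-fold higher and 6 lower, against 24% and 24.2% of all genes. MRPS15 and MRPL32 had the highest FPKM of the list in any library, 36.1, 48.9 and 87.9 for the first and 51.3, 36.5 and 86.1 for the second. Proteins of the cytosolic ribosome had a median of -0.60 in the same comparison, with 3 of 93 past 2-fold higher and 15 lower, against the same shares of all genes. Their highest FPKM in any library belonged to RPLP1, with 4022, 3434 and 1677, and RPS29, with 2975, 3381 and 2305. The summed counts of the nuclear members were 0.125, 0.108 and 0.196 times those of the cytosolic ribosome and 3.16, 2.52 and 2.26 times those of the mitochondrial ribosome.

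Regulators known to drive genes of this pathway formed a further list. In it, 7 of 12 symbols were found, as 13 genes, of which 3 were past 2-fold higher and 4 lower in the liver than in the library labelled small intestine, against 24% and 24.2% of all genes. ESRRG, an estrogen-related receptor (gene2888), had 469, 127 and 5 reads and a log2 ratio of -7.31 for liver over the library labelled small intestine. A second gene with this symbol, gene317, matched the beta receptor in NR and had 72, 0 and 1 reads. ESRRA, the related alpha receptor, had 816, 830 and 1023 reads, an FPKM of 42.8, 34.1 and 25.4, and a log2 ratio of -0.43 for liver over the library labelled small intestine. The symbol PPARGC1A was given to 3 genes of a coactivator family. The gene that matched the alpha form in NR, gene5095, had 339, 78 and 312 reads, gene3038, which matched the beta form, had 538, 107 and 42, and gene16967, which matched the related protein 1, had 635, 597 and 1388.

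Of the factors of mitochondrial transcription, TFB2M and TFB1M were past 2-fold higher in the liver than in the library labelled small intestine. TFAM, which packages and transcribes mitochondrial DNA, had 119, 122 and 276 reads on gene6261, with a log2 ratio of 0.45 for liver over the library labelled small intestine, and 6, 7 and 20 on gene15876. TFB2M, a subunit of the initiation complex, had 119, 162 and 552 reads and a log2 ratio of 1.45. TFB1M, a methyltransferase of the mitochondrial ribosome, had 53, 149 and 215 reads and log2 ratios of 1.26 and 1.32 for liver and salivary glands over that library. GABPB1, which pairs with an ETS factor, was given to 3 genes. Of these, gene19655 had 31, 31 and 236 reads, gene13177 had 56, 72 and 181, and gene17616, with 119, 196 and 78, matched an unrelated ankyrin repeat protein in NR and is among the 4 counted as lower.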

How the data were processed

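Per the labels and the methods of the study, paired reads from a HiSeq instrument were aligned by the authors with TopHat2 and joined with Cufflinks, and genes were matched to 7 databases with BLASTX. The strand was not used. The counts deposited by the authors are whole fragments per gene, not scaled between libraries. By the formula of the study, FPKM divides fragments by the length of the transcript and the mapped total of the library. The deposited values did not follow it gene by gene. With it, the fold of FPKM would move all ratios of a comparison alike. For liver over salivary glands, however, the log2 ratio went from -0.78 to -1.25 for NDUFAF3 and from 0.74 to 1.08 for UQCRC2 (gene22941). The lengths behind the deposited FPKM are not known here, and the depths below are medians over genes. The deposited FPKM values imply median depths of 7.82, 9.20 and 12.5 for small intestine, salivary glands and liver, in the units of that formula. The salivary glands thus lie above small intestine, whereas their summed counts are lower (8318686 against 10158924). The fold of FPKM is therefore not a scaling by summed counts alone, and how its depths were set was not tested. The authors also deposited a score, each count multiplied by a constant of its library, which served as a check and nothing else. The study names RSEM for the FPKM of its correlations between tissues. The tool behind the deposited counts and the build of the NW scaffolds are not given in the sources used here.

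TMM, upper quartile and DESeq2 factors came from edgeR 4.0.16 and DESeq2 1.42.0 in R 4.3.3. Of these, only TMM was tested on simulated data. The TMM factors were 0.851, 1.17 and 1.00 for small intestine, salivary glands and liver. Other values came from scipy 1.17.1, numpy 2.4.6 and pandas 2.3.3 in Python 3.11.15, with matplotlib 3.10.9 for figures. With 1 library per tissue no test was run. A ratio needed at least 10 reads in 1 of the 2 libraries, a count of 0 was set at 3 counts, and ratios carry 95% Clopper-Pearson intervals and shares 95% Wilson intervals, for counting error only.

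Members were grouped by complex, with NDUFA4 and NDUFA4L2 in complex IV. The members and lists were chosen with earlier results of these data known. Named genes were those of highest FPKM or widest ratio in a complex, the isoform pairs, the SDH genes and CYC1, repeated symbols, members with 0 reads, new genes and regulators, with the 2 of highest FPKM in other lists. The core subunits of complex I, the members past 2-fold, the subunits of complexes III to V named beside these, CS and FH were named after their values were seen. Alternatives were other scalings, filters and folds, the fold of FPKM, 1 gene per symbol, subunits only and leaving out new genes. Promoter and protein sequences were not analysed here, and the values of 1 member are not reported here.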

Additional observations from a re-analysis of the deposited data

How the results depend on the processing

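The counts of members past 2-fold stayed within 1.5 times of the reported value for DESeq2 size factors, upper quartile scaling, the fold of FPKM, no filter with 0.5 added to each count, subunits only and without new genes. For liver against the library labelled small intestine, the 11 members became 7 with 1 gene per symbol, 3 at a fold of 4 and 6 when the counting interval had to lie wholly past 2-fold. For salivary glands against the library labelled small intestine, the 8 became 15 with library size only (13 higher and 2 lower in salivary glands), 5 with at least 50 reads, 5 with 1 gene per symbol, 3 at a fold of 4 and 2 by the counting interval. For liver against salivary glands, the 15 became 4 at a fold of 4 and 6 by the counting interval, and library size only left 15 but split them 4 higher and 11 lower in the liver, where TMM gave 7 and 8. The fold of FPKM split 17 into 10 higher and 7 lower there, and 10 into 4 higher and 6 lower for salivary glands against the library labelled small intestine, where TMM gave 5 and 3. With library size only, liver against the library labelled small intestine gave 9 higher and 4 lower. Of all genes tested in the 3 comparisons, 48.3, 37.6 and 47.9% were past 2-fold with TMM. These shares became 51.1, 44.2 and 48.0% with library size only and 46.7, 35.7 and 46.0% by the fold of FPKM.

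The median log2 ratio of members changed sign with library size only, to 0.22 for liver and 0.38 for salivary glands against the library labelled small intestine and to -0.10 for liver against salivary glands. That scaling moves every gene by the same amount, and the median of all genes moved by 0.24, 0.46 and -0.22. All other settings kept the sign of the 3 medians. For salivary glands over the library labelled small intestine it also turned the medians of complex II (to 0.06), complex III (to 0.40), complex IV (to 0.11) and complex V (to 0.38) positive.

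The share of counts on members, 0.434, 0.537 and 0.513%, became 0.766, 0.697 and 0.612% without the 10 genes with most counts in each library, 0.443, 0.544 and 0.529% without the mitochondrial genome, and 1.11, 1.19 and 1.16% as a share of FPKM. The library labelled small intestine was the lowest of the 3 as reported and the highest without those 10 genes. Among 1124 recomputed ratios of members under other scalings and the fold of FPKM, 870 stayed inside their counting interval and 254 left it. Where past 2-fold, 0 changed sign. For the other scalings that 0 was fixed in advance, as they move all ratios of a comparison alike, by at most 0.46 on the log2 scale. Only the fold of FPKM could have changed such a sign. No library could be left out, since each tissue has 1. No paired analysis was possible because each tissue has 1 library from the same animal and no test was made. At these depths, ratios of genes under 50 reads have wide intervals.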
